A study of Homo sapiens with 6 samples.

Results

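A set of 9 paralogs of the TRIM43 and TRIM49 group was followed across human embryonic stem cells in the primed and the naive state: TRIM43, TRIM43B, TRIM48, TRIM49, TRIM49B, TRIM49C, TRIM49D1, TRIM51 and TRIM64. They are 9 of the 48183 gene names in the count table, and each name had 1 Ensembl identifier. The 9 genes were selected on their measured levels in these libraries, high in naive and near 0 in primed cells, so that difference is described here and not tested. Bulk polyA-enriched RNA was sequenced in 6 libraries, with 46823699 to 54277064 counts each.

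The 4 naive libraries came from 3 inductions. Naive conversion was induced for 2 libraries with AICAR, an activator of the kinase AMPK, in PXGL, a medium with PD0325901, XAV939, Go6983 and human LIF. For 1 library, doxycycline (DOX) switched on a constitutively active p38 (CA-p38) in PXGL. For the last, VPA, a histone deacetylase inhibitor, was given in Ndiff227 with PD0325901 and human LIF. Per the labels, the converted cells were passaged again in PXGL, for which mouse embryonic fibroblast feeders are given, and sorted as positive for CD75 and SUSD2. The study also describes feeder-free PXGL culture, and which of them the sequenced cells had at the end is not given in the sources used here. The 2 untreated primed libraries, EOS primed and CA-p38 EOS primed, were grown in StemFit AK02N on Matrigel. Every line carried the EOS-GFP reporter, and both CA-p38 libraries carried the Tet-ON construct, the untreated primed one included. The sample labels name the line as H1 and the study's methods name it as H9. Nothing in the sources used here says that the 2 AICAR libraries were separate conversions, so p-values measure only the spread between these samples, which may be technical.

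TRIM proteins carry a RING finger, a B-box and a coiled coil, and many act as ubiquitin ligases. The TRIM43 and TRIM49 group has expanded by duplication in primates, and most of its proteins end in a SPRY domain. Several of these genes are known to be switched on briefly in the cleavage-stage human embryo, around the activation of the embryonic genome, and in cells made to express the homeobox factor DUX4. Naive stem cells are the cultured counterpart of the preimplantation epiblast, and primed cells resemble the epiblast after implantation.

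The libraries matched their labelled states. For all 6 naive markers examined, each naive library exceeded both primed ones, and all 5 primed markers were lower. In CPM, which relates counts to the TMM-scaled library size, the naive markers summed to 1853 to 2153 in naive and 7.66 to 9.88 in primed libraries. PRM1, TNP1, ACRV1 and DDX4, markers of testis and germ cells, summed to 0.336 to 0.563 CPM in the naive libraries, and PRM1 and TNP1 had no count there. Fibroblast genes summed to 30.8 to 72.8 CPM in naive and 175 to 192 CPM in primed libraries, mostly from COL1A1 and COL1A2. Of the 6 genes, 3 (COL1A1, COL1A2 and POSTN) were lower throughout the naive state. DCN was higher throughout it, with 0.764 to 1.21 CPM against 0.566 and 0.511 CPM in primed cells. COL3A1 and LUM were mixed. In the CA-p38 naive library COL3A1 had 16.6 CPM, against 4.75 and 2.19 CPM in primed cells. LUM had 1.17 CPM there, against 0.121 and 0.0409 CPM. The sum therefore does not speak for each gene.

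The gene copies resemble each other closely, so their promoters and transcripts were examined before their levels. The RefSeq promoter set used here held a window (GRCh38.p14, 250 bases before to 50 bases after the annotated start) for 7 of the 9 genes, and TRIM49D1 had 2 windows. TRIM43 and TRIM43B had no window in it, so their promoters were not searched. A DUX4 motif, searched on both strands, was found in windows of 4 genes, TRIM48, TRIM49B, TRIM51 and TRIM49D1. Over all 35097 promoter windows, 33 held it (0.094%). The letters ACCTAATCA and GGGTGTGG were noticed in these windows and then searched on both strands. ACCTAATCA occurred in the same 4 genes and in TRIM64, and in 0.128% of all windows. GGGTGTGG occurred in TRIM48, TRIM49B, TRIM49D1 and TRIM64, and in 3.28% of all windows. A stretch of 140 bases from each of the 5 genes is shown because it holds at least 2 of these motifs. All 3 stand in TRIM49B, TRIM48 and TRIM49D1, while TRIM51 lacks GGGTGTGG and TRIM64 lacks an exact match to the DUX4 motif. The stretches run 5′ to 3′ on the strand of the gene, and capitals mark the 3 motifs.
TRIM49B: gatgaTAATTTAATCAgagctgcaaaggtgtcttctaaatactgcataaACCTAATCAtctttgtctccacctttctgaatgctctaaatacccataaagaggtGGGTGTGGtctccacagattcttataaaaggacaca
TRIM48: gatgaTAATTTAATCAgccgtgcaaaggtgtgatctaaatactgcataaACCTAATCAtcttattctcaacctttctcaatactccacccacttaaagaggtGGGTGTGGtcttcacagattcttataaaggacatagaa
TRIM51: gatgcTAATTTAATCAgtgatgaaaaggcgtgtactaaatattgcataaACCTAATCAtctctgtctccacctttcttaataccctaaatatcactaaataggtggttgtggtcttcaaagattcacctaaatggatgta
TRIM49D1: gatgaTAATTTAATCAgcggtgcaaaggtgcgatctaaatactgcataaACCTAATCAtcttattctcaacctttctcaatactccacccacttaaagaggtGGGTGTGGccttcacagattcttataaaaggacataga
TRIM64: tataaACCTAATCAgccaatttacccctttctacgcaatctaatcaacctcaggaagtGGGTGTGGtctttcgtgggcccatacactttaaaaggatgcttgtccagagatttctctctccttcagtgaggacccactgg
The DUX4 motif and ACCTAATCA both end in TAATCA but did not overlap in any of the stretches. Their first bases were 44 bases apart in each of the 4 genes with both. Near matches to the DUX4 motif were not counted, in TRIM64 or elsewhere. The DUX4 motif was searched as TAA, then 2 bases that are C or T, then TAATCA, and ACCTAATCA is a form of its end. Together with the 2 bases before it, ACCTAATCA matched the DUX4 motif in all 5 stretches except at the first base. It is therefore a near match and is not shown to be a separate kind of site. The first bases of ACCTAATCA and GGGTGTGG were 53 bases apart in TRIM48, TRIM49D1 and TRIM64 and 55 bases apart in TRIM49B. The stretches lie at chr11:49028669-49028808 for TRIM49B, chr11:55262004-55262143 for TRIM48, chr11:55883073-55883212 for TRIM51 and chr11:89965922-89966061 for TRIM64, all on the plus strand. The stretch of TRIM49D1, from the second of its windows, lies at chr11:89920468-89920607 on the minus strand. The windows of TRIM49 and TRIM49C, which differ at 1 of 300 bases (G98A, with the base of TRIM49 first and positions counted from 1 at the 5′ end of the window), and the first window of TRIM49D1 held none of the 3 motifs. These 3 windows lie at the 5′ end of the annotated gene, while the second window of TRIM49D1 lies further inside it. TRIM49 and TRIM49C had no such inner window, so that part of these genes was not searched. The matches describe letters within the windows that RefSeq defines, and binding of a factor was not measured.

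The 9 genes lie in a few places of the genome (GRCh38, GENCODE 44), and all are annotated as protein-coding. TRIM43B (chr2:95477008-95484754, minus strand) and TRIM43 (chr2:95592001-95599778, plus strand) are close together on chromosome 2. TRIM49 (chr11:89797655-89808575, minus), TRIM49D1 (chr11:89911111-89922245, minus), TRIM64 (chr11:89966037-89974072, plus) and TRIM49C (chr11:90031106-90042025, plus) form a cluster on the long arm of chromosome 11. TRIM49B (chr11:49027501-49038451), TRIM48 (chr11:55262155-55271114) and TRIM51 (chr11:55883297-55891810) lie on either side of its centromere, all on the plus strand.

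Reads shared between these paralogs are not separated in the counts. The longest annotated transcripts of TRIM43 and TRIM43B were 99.5% identical, those of TRIM49 and TRIM49C 99.6%, those of TRIM49 and TRIM49B 98% and those of TRIM48 and TRIM49D1 97.3%. TRIM43 and TRIM49 were 68.5% identical. Of the 100-base stretches of a gene's transcripts, 98.5% in TRIM48, 93.2% in TRIM51 and 81.4% in TRIM49B were in no other gene. These 3 genes therefore have the counts that are least open to exchange with a copy. The same share was 38.8% in TRIM43, 36.5% in TRIM43B, 30.3% in TRIM49, 27.8% in TRIM49C, 39.8% in TRIM49D1 and 33.3% in TRIM64. The closest copy of TRIM49D1 was TRIM49D2, none of whose stretches was its own, and the closest copy of TRIM64 was TRIM64B. The level of each gene in the pairs TRIM43 and TRIM43B, TRIM49 and TRIM49C, TRIM49D1 and TRIM49D2, and TRIM64 and TRIM64B is uncertain for this reason, and the sum of each pair is given as well.

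**Figure D1:**
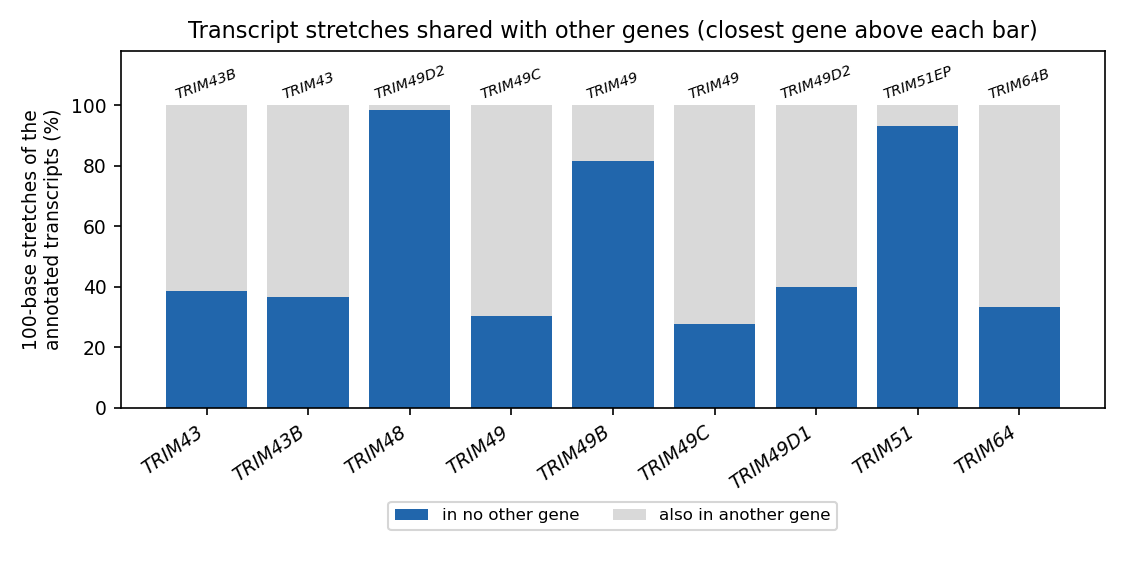
Share of the 100-base stretches of each gene's annotated transcripts, in percent, that occur in no other gene (blue) or also in another gene (grey). The gene that shares the most is named above each bar. TRIM48, TRIM51 and TRIM49B stand at 81.4% or more and the other 6 genes at 39.8% or less.

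All 9 genes were detected in every naive library, while the primed libraries held 2 counts of them in all. Summed over the 9 genes, the level was 56.5 and 75.2 CPM in the AICAR libraries, 19.4 CPM in the CA-p38 library and 16.5 CPM in the VPA library. It was 0.0202 CPM in EOS primed and 0.0204 CPM in CA-p38 EOS primed cells, which is 1 count in each. The naive libraries held 8651 counts, and relative to the TMM-scaled library sizes their level was 2057 times that of the primed libraries (95% exact interval 569 to 16990, which covers counting error only). Every naive library lay above both primed libraries for each of the 9 genes, an order that 32.9% of the 26497 tested genes had. Nothing is read from that count, since the genes were selected on it. In bulk RNA, fewer cells that express a gene and less RNA per cell cannot be told apart.

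TRIM43, which is known from early embryos and from cells infected with herpesviruses, had 10.3 and 14.4 CPM in the AICAR libraries, 3.42 CPM with CA-p38, 3.27 CPM with VPA and no count in primed cells. TRIM43B had 13.0 and 17.6 CPM with AICAR, 4.91 CPM with CA-p38, 3.44 CPM with VPA, no count in EOS primed and 1 count in CA-p38 EOS primed cells. Their sum was 23.3 and 31.9 CPM with AICAR, 8.33 CPM with CA-p38 and 6.70 CPM with VPA. Both genes and their sum were highest in the AICAR libraries, and neither AICAR library overlapped with the other inductions. Against a floor of 3 counts per primed library, the mean naive level of TRIM43 (7.84 ± 5.46 CPM, SD, n = 4) was at least 129-fold higher, and that of TRIM43B (9.71 ± 6.70 CPM) was 954 times the primed level with a counting interval of 171 to 37680. The first value is a bound set by the floor and the second a ratio that rests on 1 primed count, so the 2 values cannot be compared with each other.

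TRIM49 had 12.2 and 15.6 CPM in the AICAR libraries, 4.53 CPM with CA-p38 and 3.99 CPM with VPA. TRIM49C had 8.20 and 9.60 CPM with AICAR, 2.81 CPM with CA-p38 and 2.41 CPM with VPA. The sum of the pair was 20.4 and 25.1 CPM with AICAR, 7.34 CPM with CA-p38 and 6.40 CPM with VPA. Neither gene had a count in primed cells, and both showed the same split of the naive libraries as TRIM43. The mean naive levels were 9.06 ± 5.72 CPM for TRIM49 and 5.75 ± 3.68 CPM for TRIM49C (SD, n = 4), at least 149-fold and 94.4-fold above the floor. TRIM49D1 had 5.78 and 11.5 CPM with AICAR, 1.78 CPM with CA-p38, 2.29 CPM with VPA and 1 count in EOS primed cells, a ratio of 522 (counting interval 93.45 to 20630). Together with TRIM49D2 it reached 9.88 and 19.0 CPM with AICAR, 2.51 CPM with CA-p38 and 3.78 CPM with VPA. TRIM49D1 was the 1 gene of the 9 that was higher with VPA than with CA-p38, and the AICAR libraries differed more in it than in any other of the 9.

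The 3 genes with mostly unshared transcripts had the same order. TRIM49B had 4.69 and 3.72 CPM with AICAR, 1.13 CPM with CA-p38 and 0.745 CPM with VPA. TRIM51 had 1.21 and 1.39 CPM with AICAR, 0.554 CPM with CA-p38 and 0.210 CPM with VPA. TRIM48, known to promote the degradation of the methyltransferase PRMT1, had 0.699 and 0.724 CPM with AICAR, 0.119 CPM with CA-p38 and 0.115 CPM with VPA. None of them had a count in primed cells, and the AICAR libraries did not overlap with the others in any of them. Their mean naive levels lay at least 42.2-fold (TRIM49B), 13.8-fold (TRIM51) and 6.8-fold (TRIM48) above the primed floor. For the lowest naive library alone, these bounds were 12.2-fold, 3.45-fold and 1.88-fold. TRIM64 had the lowest mean naive level of the 9 genes, with 0.442 and 0.745 CPM with AICAR, 0.119 CPM with CA-p38 and 0.0764 CPM with VPA. That mean lay at least 5.7-fold above the floor, and the lowest naive library 1.25-fold. TRIM64 and TRIM64B summed to 2.89 and 4.23 CPM with AICAR, 0.752 CPM with CA-p38 and 1.20 CPM with VPA.

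**Figure D2:**
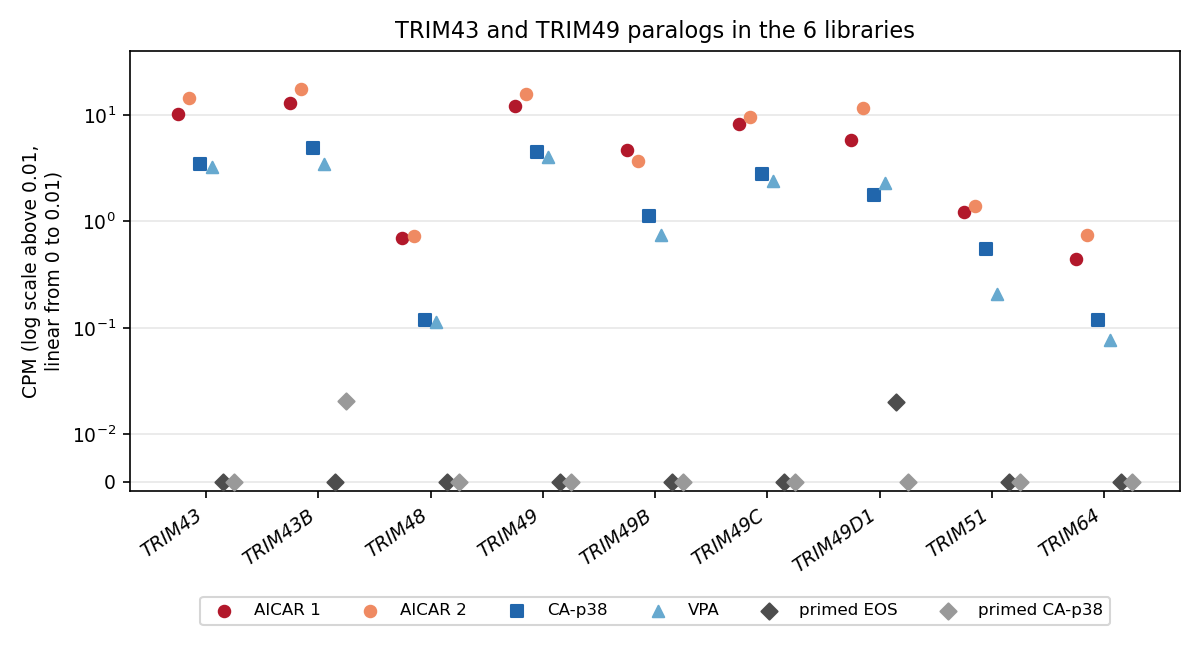
CPM of each of the 9 genes (y axis, log scale above 0.01 and linear from 0 to 0.01) in each of the 6 libraries, 1 point per library. The AICAR points (red and orange) lie above the CA-p38 and VPA points (blue) for all 9 genes, and the primed points (grey) lie at 0 except for 1 count each in TRIM43B and TRIM49D1.

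Per length of the longest transcript, the order of the levels was nearly the same in every naive library. TRIM43B stood first with a mean of 5.89 ± 4.06 CPM per kb, followed by TRIM43 (4.62 ± 3.21), TRIM49 (4.19 ± 2.64), TRIM49C (2.66 ± 1.70), TRIM49D1 (2.47 ± 2.07), TRIM49B (1.19 ± 0.895), TRIM51 (0.517 ± 0.340), TRIM48 (0.282 ± 0.234) and TRIM64 (0.209 ± 0.189, all SD, n = 4). The SDs span the 3 inductions, and neighbours in this order differed by less than the SD of the higher one. Within single libraries, 6 of the 8 neighbouring pairs kept this order in 4 of 4 naive libraries. TRIM43 against TRIM49 and TRIM49C against TRIM49D1 kept it in 3 of 4.

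The make-up of the counts was similar in the naive libraries for most of the genes. TRIM43 held 17.7% to 19.8% of the counts of the 9 genes in the 4 naive libraries, TRIM43B 20.8% to 25.3%, TRIM49 20.7% to 24.1% and TRIM49C 12.8% to 14.6%. TRIM51 held 1.27% to 2.86%, TRIM48 0.613% to 1.24% and TRIM64 0.462% to 0.990%. TRIM49B held 8.31% (95% exact interval 7.36% to 9.34%) in AICAR 1 but 4.95% (4.28% to 5.70%) in AICAR 2. TRIM49D1 held 10.2% (9.18% to 11.4%) in AICAR 1 and 15.3% (14.2% to 16.5%) in AICAR 2. The intervals of these 2 genes do not overlap between the AICAR libraries. They cover counting error only, and no replicate check of the make-up was possible within CA-p38 or VPA.

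**Figure D3:**
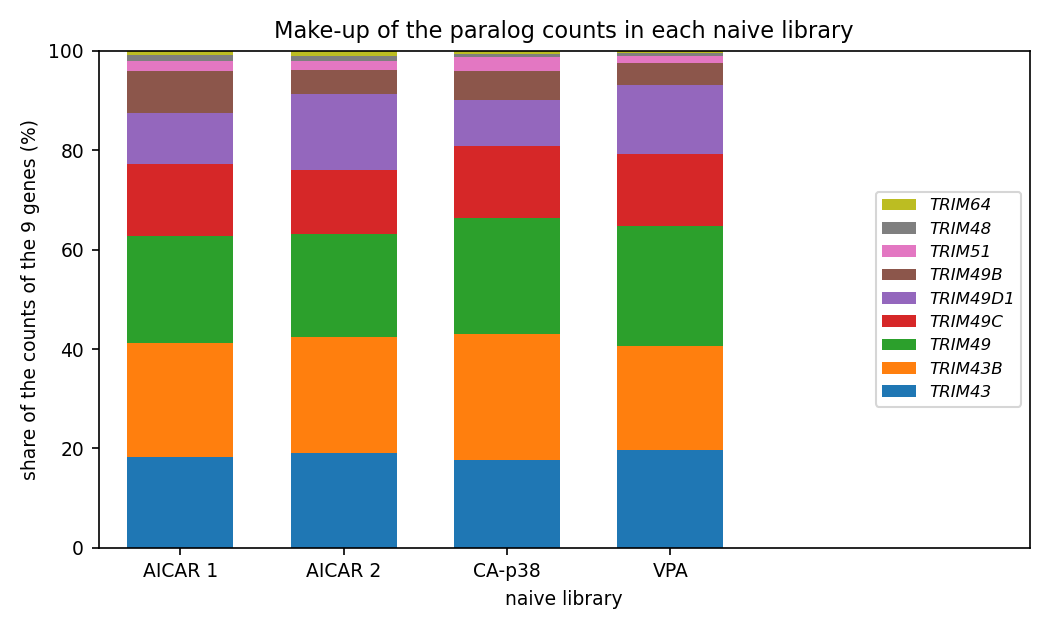
Share of each gene in the summed counts of the 9 genes (y axis, percent) in each of the 4 naive libraries. TRIM43, TRIM43B, TRIM49 and TRIM49C make up most of every bar, and the widest visible shift is that of TRIM49D1, from 9.19% with CA-p38 to 15.3% in AICAR 2.

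The inductions were then compared within the naive state, a contrast that the rule for the genes did not use, although they were chosen with earlier results of these data known. The study gives a longer treatment and a higher passage for the AICAR cells than for the CA-p38 and VPA cells, and the CA-p38 cells are a separate transgenic line. Induction, treatment length, passage and, for CA-p38, the line cannot be told apart in these libraries. All 9 genes were higher in both AICAR libraries than in the CA-p38 and the VPA library, an order that 15.9% of the 26497 tested genes had. The summed level was 3.40 times that of the CA-p38 library and 3.98 times that of the VPA library. For the 3 genes with mostly unshared transcripts, these ratios were 3.46 and 5.82.

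Against CA-p38, the log2 fold changes of AICAR ran from 1.23 ± 0.78 (SE) in TRIM51 to 2.56 ± 1.18 in TRIM48, the median being 1.85 against 0.02 over all tested genes. TRIM43 differed by 1.85 ± 0.40, TRIM43B by 1.64 ± 0.38, TRIM49 by 1.61 ± 0.37 and TRIM49D1 by 2.28 ± 0.53. By the quasi-likelihood test of edgeR, adjusted by Benjamini-Hochberg over all genes, 0 of the 9 passed 0.05, and the lowest adjusted p was 0.799. No gene of the table passed in this contrast either (0%). At an unadjusted p under 0.05, 6 of the 9 genes were higher with AICAR, against 2.23% of the tested genes. The CA-p38 side is 1 library whose spread was taken from the AICAR pair and the 2 primed libraries, which are different lines, so nothing further is read from the unadjusted count.

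Against VPA, the differences ran from 1.79 ± 0.37 in TRIM49 to 2.92 ± 1.32 in TRIM64, with a median of 2.15 against 0.00 over all tested genes. TRIM43B differed by 2.15 ± 0.39 with an edgeR adjusted p of 0.144, the lowest of the 9, and TRIM49B by 2.49 ± 0.58. Again 0 of the 9 passed, with 2 genes of the table past the threshold (0.00755%). At an unadjusted p under 0.05, 9 of the 9 were higher with AICAR, against 4.09% of the tested genes. That count is not read as support, since the VPA side is also 1 library and TRIM48 and TRIM64 passed the filter on low counts through the AICAR libraries. Both contrasts use the same AICAR libraries, so they are not independent of each other.

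Between CA-p38 and VPA, the differences ran from -0.36 ± 0.57 in TRIM49D1 to 1.39 ± 0.94 in TRIM51, with 8 of 9 above 0. None of the 9 passed in edgeR (lowest adjusted p 0.864) or in DESeq2, none had an unadjusted p under 0.05, and no gene of the table passed (0%). With 1 library on each side, the spread was taken from the AICAR and primed pairs.

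Whether the AICAR difference passed depended on the fit. DESeq2 called 1 of the 9 against CA-p38 (TRIM43) and 4 against VPA, beside 10 and 86 of all genes. Its adjusted p was 0.0488 for TRIM43 against CA-p38 and 8.69e-05 for TRIM43B against VPA, where edgeR gave 0.799 and 0.144. Leaving out EOS primed or CA-p38 EOS primed leaves a lone primed library, assumed to vary like the AICAR pair. In both of these fits the log2 fold change stayed at 1.85 for TRIM43 against CA-p38 and 2.15 for TRIM43B against VPA. The direction of AICAR above CA-p38 and VPA was kept for every gene in every fit that tested it. TRIM48 and TRIM64 were tested only where both AICAR libraries were kept.

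**Figure D4:**
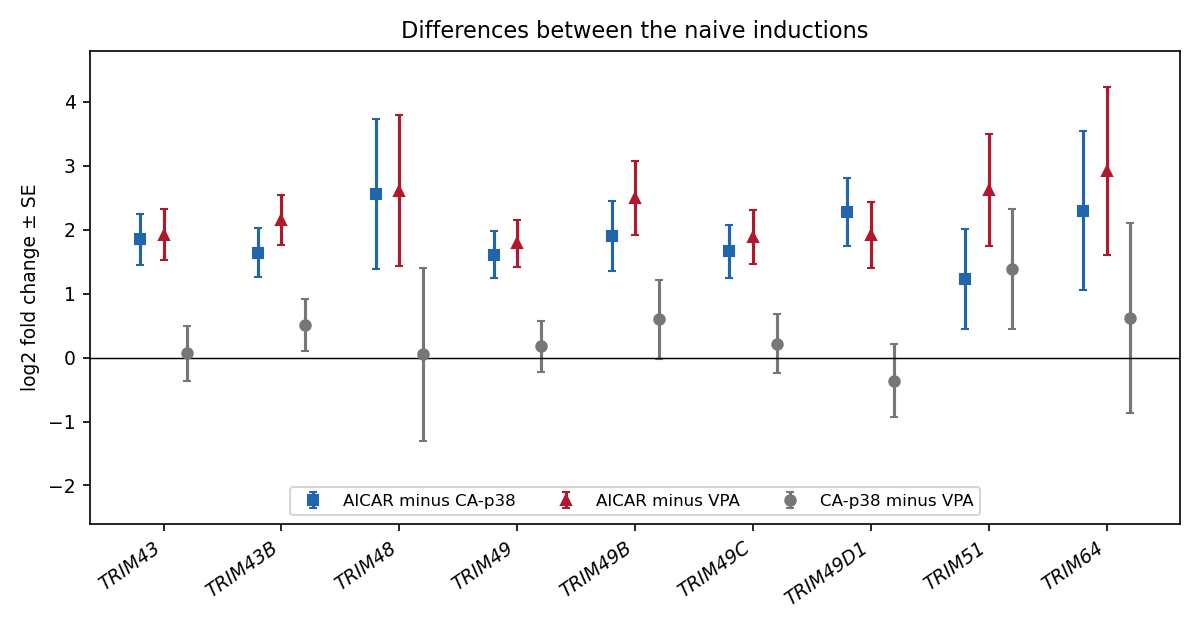
Log2 fold changes with their SE (y axis) between the naive inductions for each of the 9 genes, from edgeR's fit over all 6 libraries. AICAR minus CA-p38 (squares) and AICAR minus VPA (triangles) lie between 1.23 and 2.92 for all 9 genes, and CA-p38 minus VPA (circles) lies between -0.36 and 1.39.

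Other names of the same subfamily, which were not among the 9, include pseudogenes and close copies. Of these 20 names, 9 had enough counts to be tested between naive and primed cells, and 8 were higher in naive cells (edgeR adjusted p 3.29e-05 to 0.00222), beside 26% of all tested genes. Of the 9 tested names, 8 had no primed count and could pass the filter on low counts only through the naive libraries, so their direction was fixed by the filter and the count is a description. The median log2 fold change was 9.61 as fitted and 5.22 with genes without a primed count placed at their floor, against 0.11 over all tested genes. TRIM53AP had 9.23 and 16.9 CPM with AICAR, 3.60 CPM with CA-p38, 2.65 CPM with VPA and 1 count in primed cells. TRIM53BP had 8.70, 9.26, 2.24 and 2.005 CPM in the same order of libraries. TRIM53CP had 5.28, 6.68, 1.21 and 1.28 CPM, and TRIM49D2 had 4.10, 7.43, 0.732 and 1.49 CPM. These 4 names showed the same split between AICAR and the other inductions as the 9 genes. TRIM51BP, TRIM64B, TRIM43CP and TRIM51EP also passed, with 3.24 and 3.74, 2.45 and 3.48, 1.56 and 2.01, and 1.03 and 0.906 CPM in the AICAR libraries. TRIM51FP was counted in the AICAR libraries alone, at 0.258 and 0.342 CPM, and did not pass (adjusted p 0.0783). The 20 names summed to 36.1 and 52.4 CPM with AICAR, 9.93 CPM with CA-p38 and 10.5 CPM with VPA. Not all relatives were detected, since 6 of the 20 names had 3 counts or fewer in every library, TRIM77 among them. Of the 100-base stretches, all of TRIM49D2 and 67.8% of TRIM64B occur in another gene, in the first case TRIM49D1 and in the second mainly TRIM64, so these copies cannot be separated from members of the 9. TRIM53CP (96.3%), TRIM51FP (94.2%) and TRIM43CP (80.8%) have mostly stretches of their own, and TRIM53AP, TRIM53BP, TRIM51BP and TRIM51EP share mainly with each other.

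TRIM genes of other subfamilies went both ways between naive and primed cells. Of 82 such names 61 were tested, 21 were higher and 21 lower in naive cells, beside 26% and 27% of all tested genes, and their median log2 fold change was 0.02. Of the 61, 3 had no primed count (TRIM31, TRIM63 and TRIM60P18) and were among those called higher. They passed the filter on low counts through the naive libraries, so their direction was fixed and the counts are a description. TRIM60 rose from 0.121 and 0.123 CPM in primed to 43.9 to 61.1 CPM in naive cells (log2 fold change 8.69, adjusted p 8.58e-11). TRIM75P (8.37), TRIM61 (3.89), TRIM60P14 (3.40) and TRIM38 (2.41) also rose on the log2 scale. TRIM60, TRIM61 and TRIM75P are relatives that lie together on chromosome 4. TRIM21, the cytosolic antibody receptor, fell by 4.75 on the log2 scale, TRIM9, a neuronal TRIM, fell by 4.51 and TRIM5, a retrovirus restriction factor, fell by 3.81. TRIM24 fell by 1.87 and TRIM44 fell by 1.72. The AICAR libraries lay above the other naive libraries in 10 of the 61, near the share over all genes.

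Genes known from the 8-cell embryo or as DUX4 targets were examined as a list of 21 names. Of these 20 were tested and 19 were higher in naive cells (edgeR adjusted p 2.45e-11 to 0.0296), beside 26% of all tested genes, with a fitted median of 7.38, or 4 with genes without a primed count at their floor. Of the 20, 11 had no primed count and passed the filter on low counts through the naive libraries, so the count is a description. DUX4 itself was scarce, with 0.699 and 1.19 CPM in the AICAR libraries, 0.475 CPM with CA-p38, 0.726 CPM with VPA and 0 and 0.0817 CPM in primed cells. Among the naive libraries the list did not behave as one. Both AICAR libraries were above CA-p38 and VPA in 13 of the 20, beside 15.9% of all tested genes, and none of the differences passed in edgeR after adjustment over all genes. At an unadjusted p under 0.05, 9 were higher with AICAR than with CA-p38 and 12 than with VPA, beside 2.23% and 4.09% of all tested genes. DUXA, PRAMEF1 and PRAMEF2 passed the filter on low counts through the AICAR libraries, so their direction was fixed. CA-p38 and VPA are also 1 library each, so neither these counts nor the 13 of 20 are read as support. DESeq2 called 1 and 3 of the list, beside 10 and 86 of all genes. ZSCAN4, a zinc finger gene of the 8-cell stage, had 3.77 and 6.02 CPM with AICAR, 1.25 CPM with CA-p38 and 1.70 CPM with VPA. MBD3L2 had 4.14, 6.62, 1.19 and 1.09 CPM, H3Y1, a histone H3 variant, had 5.33, 8.85, 2.06 and 1.97 CPM, and KDM4E, a histone demethylase, had 2.91, 4.93, 0.712 and 1.64 CPM in the same order. TPRX1, a homeobox gene, had 2.70, 4.45, 1.54 and 0.458 CPM. These genes had the order of the TRIM paralogs. CCNA1, the germ cell cyclin A, had 25.9, 37.8, 12.4 and 11.6 CPM, and SLC34A2, a phosphate transporter, had 10.8, 16.5, 4.47 and 3.28 CPM, the same order again. KHDC1L, by far the most abundant gene of the list, did not have it, with 396.1, 305.1, 371.1 and 432.1 CPM. ARGFX (5.43, 7.37, 4.81 and 7.24 CPM) and ZNF280A (5.02, 4.73, 5.64 and 4.11 CPM) did not have it either.

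**Figure D5:**
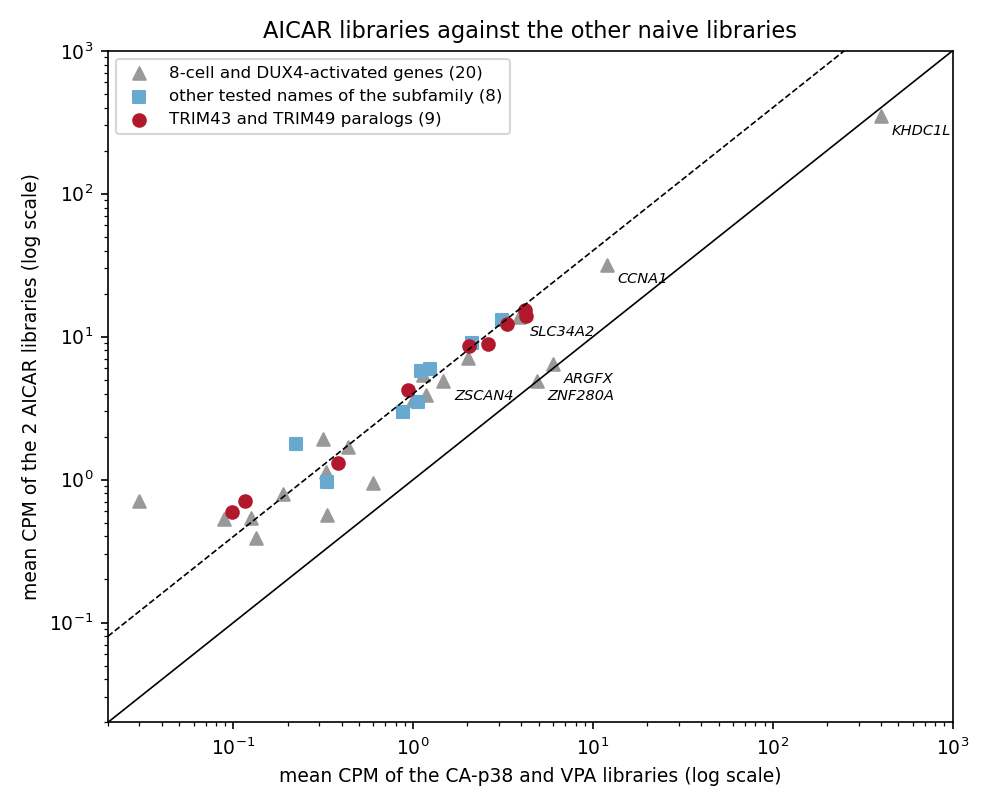
Mean CPM of the 2 AICAR libraries (y axis, log scale) against the mean of the CA-p38 and the VPA library (x axis, log scale), with 1 point per gene. The solid line marks equal levels and the dashed line 4 times more in AICAR. The 9 paralogs (red) and 8 other names of the subfamily (blue) lie near the dashed line, as do most genes of the 8-cell list (grey), while KHDC1L, ARGFX and ZNF280A lie near the solid line. TRIM51FP, with no count in CA-p38 and VPA, is not drawn.

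Other markers were compared between the same libraries. The 6 naive markers summed to 2032 and 2153 CPM in the AICAR libraries, 1863 CPM with CA-p38 and 1853 CPM with VPA, and 2 of the 6 were above the other inductions in both AICAR libraries. Of the 3 pluripotency markers and the 6 fibroblast markers, none were. The fibroblast sum was 30.8 and 50.4 CPM with AICAR, 72.8 CPM with CA-p38 and 40.6 CPM with VPA. For markers of other cell types, both AICAR libraries were above CA-p38 and VPA in 3 of 5 primed, 2 of 5 trophectoderm and 2 of 5 hypoblast markers, and in none of the 4 testis and spermatid markers found. The primed markers summed to 33.8 and 42.5 CPM with AICAR, 30.9 CPM with CA-p38 and 34.5 CPM with VPA. GATA3, a trophectoderm factor, had 2.45 and 2.31 CPM with AICAR, 0.712 CPM with CA-p38 and 0.382 CPM with VPA, and GATA6, a hypoblast factor, had 3.05, 2.72, 1.33 and 0.955 CPM. The trophectoderm list as a whole summed to 15.0 to 16.1 CPM with AICAR, 20.1 CPM with CA-p38 and 16.8 CPM with VPA, and the hypoblast list to 11.7 to 17.8, 13.7 and 13.0 CPM. The part of these levels in the AICAR difference of the TRIM genes was not tested.

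The DUX4 motif was also followed outside the subfamily, in a list made after the windows of the 9 genes had been seen. It stood in the windows of 33 gene symbols, of which 6 belong to the TRIM subfamily and 17 of the others had a row in the table, 2 of them at 0 in every library. Of 9 tested, 7 were higher in naive cells, 1 was lower and 1 did not pass, beside 26% of all tested genes higher and 27% lower. Of the 9, 3 had no primed count and passed the filter through the naive libraries, so their direction was fixed and the count is a description. ZNF534, a zinc finger gene, had 31.8 to 39.2 CPM in naive and 0.0606 and 0.0817 CPM in primed cells (log2 fold change 8.91, adjusted p 7.87e-11). PRAMEF8 had 0.115 to 1.73 CPM, TAF11L12 0.134 to 1.39 CPM and PRAMEF7 0 to 0.423 CPM in naive cells, with no count in primed cells. RFPL4AL1 had 0.306 to 2.64 CPM in naive cells and 1 count in primed cells. SLC4A5 (1.56) and SRSF8 (0.66) were higher by less on the log2 scale, SYT16 fell by 1.48, and LINC00237 did not pass (adjusted p 0.162). Few of these genes were abundant, and the window was the sole criterion for the list.

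Genes around the 9 paralogs were examined by position. Within 500 kb lie 111 annotated genes of the table that are not of the subfamily, and 73 of them had 3 counts or fewer in every library. Of 26 tested, 5 were higher and 8 lower in naive cells, beside 26% higher and 27% lower of all tested genes. Their median log2 fold change was -0.02. Around TRIM49, TRIM49C, TRIM49D1 and TRIM64, 5 of 18 neighbours were tested, none was higher and 3 were lower. NAALAD2, a peptidase gene and the one with the largest change of these, had 0.726 to 2.11 CPM in naive and 7.58 and 8.04 CPM in primed cells (log2 fold change -2.43, adjusted p 4.88e-05). Near TRIM43 and TRIM43B, KCNIP3, a calcium-binding protein gene (1.84), and PROM2, a prominin (1.78), rose and AC092835 fell by 1.45 and FAHD2CP by 1.33 on the log2 scale. Leaving out EOS primed or CA-p38 EOS primed reduced the calls among the neighbours from 13 to 8.

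Across the 6 libraries, the genes of most similar pattern to the summed paralogs were ranked by the distance of their centred log2 levels among 18060 genes that averaged 1 CPM or more. PEG3, an imprinted zinc finger gene, came first with a distance of 1.48, followed by KLF17, a naive transcription factor (1.54), ZNF728 (1.60), ITGAM (1.61), CCNA1 (1.62), YPEL2 (1.63), MUC4 (1.65) and PCAT14 (1.66). The median distance over all ranked genes was 7.28. Because 0.5 CPM was added before the log2, the span of a gene's levels, and so its distance, depends on its abundance. The distance also takes in the step from primed to naive cells, on which the paralogs were selected. None of the 8 genes was of the TRIM subfamily, although TRIM53AP and others had the split of the paralogs. The ranking therefore does not show which genes best match the split between the inductions. PEG3 had 32.5 and 28.6 CPM with AICAR, 27.9 CPM with CA-p38, 13.4 CPM with VPA and no count in primed cells. KLF17 had 31.2, 24.3, 21.5 and 13.5 CPM. Of the 8 genes, CCNA1 alone had both AICAR libraries at more than 2 times the CA-p38 and VPA libraries, as the paralogs did.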

How the data were processed

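Whole-number read counts per Ensembl gene identifier were deposited by the authors for the 6 bulk libraries. Per the study's methods, reads were trimmed with Trim Galore 0.4.4 and cutadapt 1.15, aligned with Bowtie2 to Ensembl GRCh38 release 100 cDNA and ncRNA, and kept at a mapping quality of at least 1. The submitters' processing notes also name RSEM and limma. How reads with equally good places were counted is not given in the sources used here, and such reads can move counts between paralogs. A further 23 columns hold other studies and were not used, and 26 spike-in rows were left out.

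Identifiers that share a name were summed. CPM values are counts over library sizes scaled by TMM factors. The quasi-likelihood functions of edgeR 4.0.16 (R 4.3.3, filterByExpr by state, Benjamini-Hochberg adjustment over 26497 genes, threshold 0.05) tested naive against primed libraries, and a second fit with 1 coefficient for each induction tested the inductions. DESeq2 1.42.0 was an alternative. On simulated counts with 200 genes changed by a log2 fold of 2, the naive against primed fit recovered 100% and called 12 of 25549 genes falsely, and the AICAR against CA-p38 fit recovered 62.5% with 0 false calls among 25565 genes. The changed genes were drawn from well-counted genes, and every gene was given the same dispersion. These rates therefore do not hold for low-count genes such as TRIM48, TRIM51 and TRIM64. A level of 0 allows up to 3 counts per library. Intervals are 95% exact binomial ones.

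The 9 genes and the lists (relatives, other TRIM genes, 8-cell genes, neighbours, markers) were chosen with earlier results of these data known. Named genes are all 9 members, the tested names of their subfamily, the 5 highest and 5 lowest called TRIM genes of other subfamilies with a mean of at least 1 CPM, the 10 most abundant of the 8-cell list, the 5 called neighbours with the largest change and the 8 genes of most similar pattern, by Euclidean distance on log2(CPM + 0.5). DUX4 and the genes with a DUX4 motif were named after their values were seen. Sequences are from RefSeq (GRCh38.p14), positions and transcripts from GENCODE 44. The AICAR libraries differed from each other by more than counting error (chi-square per gene 26.76) and were kept as 2 samples. By the same measure, AICAR 1 and AICAR 2 differed from the CA-p38 naive library by 26.74 and 25.41 and from the VPA library by 28.44 and 46.97. Over all genes, the AICAR libraries were thus no closer to each other than to the CA-p38 naive library.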

Additional observations from a re-analysis of the deposited data

How the results depend on the processing

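The summed naive over primed ratio of the 9 genes ran from 1987 to 2202 under median-ratio factors or library totals and from 1538 to 2478 with 1 library left out. All 9 genes kept every naive library above both primed ones in each of these, and all 9 kept both AICAR libraries above CA-p38 and VPA, an alternative chosen after seeing the data. Keeping only the identifier with the most counts changed nothing, since each gene has 1. A minimum of 10 counts in every library left none of the 9 to test and 4 calls in the 8-cell list in place of 19.

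The calls between inductions were sensitive to the fit. Against CA-p38, calls among all genes were 0, but 10 by DESeq2, 57 with no filter beyond 1 count and 0 to 68 with 1 library left out. Members called were 0, but 1 by DESeq2, 4 with no filter and 0 to 4 with 1 library left out. Against VPA, calls among all genes were 2, but 14 with median-ratio factors, 0 with library totals, 86 by DESeq2, 215 with no filter, 0 with identifiers kept apart and 0 to 252 with 1 library left out, and members called were 0, but 4 by DESeq2, 6 with no filter and 0 to 6 with 1 left out. For CA-p38 against VPA, calls among all genes were 0, but 1 with median-ratio factors, 22 by DESeq2, 125 with no filter and 0 to 173 with 1 left out, with no member called. The cause was not tested. Calls among the neighbours were 8 to 12 with 1 library left out, against 13. No setting reversed the direction of a member between inductions. CA-p38 and VPA each have 1 library, which cannot be left out of its own contrast.

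No paired analysis was possible because the replicate numbers do not pair the groups, which share at most 1 number. The parental line is known, and with it as a term the naive against primed calls were 13420 against 14058, those of the 8-cell list 17 against 19 and those of the neighbours 11 against 13. Reads shared by copies, 1 library for each of 2 inductions and 4 to 6 counts of TRIM48 and TRIM64 in the CA-p38 and VPA libraries limit what can be said of single genes.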
